A study of Mus musculus with 40 samples.

Results

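Pulmonary fibrosis caused in mice by bleomycin was set against fibrosis caused by an adenovirus that makes mouse TGF-β1 (Ad-TGFβ1), by subtracting the effect of the virus from the effect of the drug for every gene. The comparison used all 20 libraries of lungs from mice given vehicle, out of 40 libraries in the series, with 5 libraries in each of 4 groups. A bleomycin effect is the log2 fold change of bleomycin lungs over saline lungs, and an Ad-TGFβ1 effect is that of Ad-TGFβ1 lungs over empty vector lungs. The difference is the bleomycin effect minus the Ad-TGFβ1 effect, so a positive value means that the bleomycin effect was the higher of the pair.

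All mice were C57BL/6. Per the labels both sexes were studied, while in these 20 libraries Xist, the RNA of the inactive X chromosome in females, had at most 12 counts, and the Y-linked gene Ddx3y averaged 101 CPM (counts scaled to a library of 1000000). Their ages were not stated in the labels. Bleomycin lungs had been given 1.5 U/kg of bleomycin into the throat (the oropharyngeal route), and saline lungs had been given saline by that route. Ad-TGFβ1 lungs had been given, through the nose, an adenovirus in which a CMV promoter drives mouse TGF-β1, and empty vector lungs had been given the vector without that gene. Every mouse of these 4 groups then received vehicle by daily gavage from day 10 until the lungs were taken on day 28, and RNA came from the left lung. The agent, its route and its control all differ between the models, and the models share no library. These, and any difference between the experiments themselves, cannot be told apart in the difference. Each library is labelled as a separate replicate, and p-values measure the spread between these libraries. Since whole lungs were sequenced, fewer cells of a type and less RNA per cell cannot be told apart.

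Bleomycin breaks DNA and injures the alveolar epithelium, and repair brings in macrophages and matrix-making fibroblasts. TGF-β1 is a secreted ligand that is held latent in the matrix, released by integrins or proteases, and signals through a receptor pair to SMAD transcription factors that switch on matrix genes. The virus supplies this ligand without the drug's DNA damage, but a virus is itself seen by interferon pathways and by lymphocytes.

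Total counts ran from 11360823 to 17336972 in bleomycin libraries, 9514991 to 13725397 in saline libraries, 10307564 to 17256245 in Ad-TGFβ1 libraries and 9289156 to 12525081 in empty vector libraries. On the first principal component, with 31.3% of the variance, bleomycin and Ad-TGFβ1 libraries lay at -86.9 to -4.64 and the control libraries at 3.95 to 56.3. The second, with 26.5%, held 9 of the 10 libraries of the virus model at 28.4 or higher, and all 10 of the bleomycin model at -18.0 or lower. Empty vector library 5 lay between them at -14.7. Empty vector library 1 lay nearest to the Ad-TGFβ1 libraries on the first component, at 3.95, and bleomycin library 3 lay farthest out at -86.9. Results that rest on these 3 libraries are given with and without them, and leaving them out was chosen after the data were seen.

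**Figure D1:**
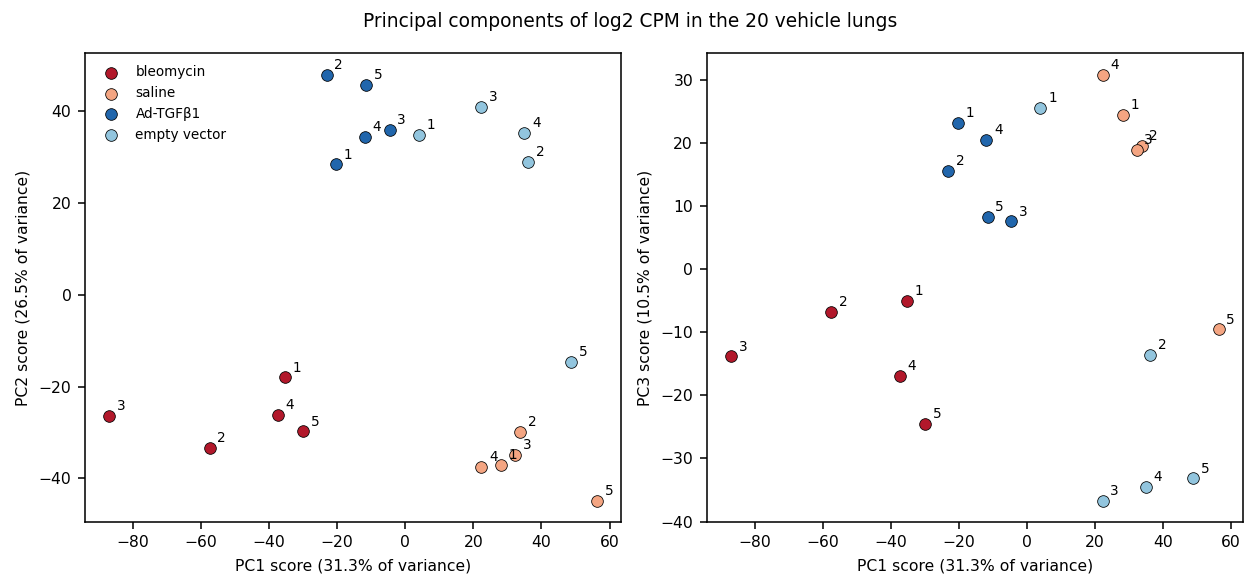
Principal components of log2 CPM in the 20 lungs, with the first component against the second on the left and against the third on the right. Points are libraries, numbered within their group. Empty vector library 5 stands apart from the other 4 on the second component, at -14.7.

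Both injuries moved many genes in the same direction, and bleomycin moved more of them and further. Among 18906 tested genes, 2501 (13.2%) were called in the difference at an edgeR quasi-likelihood adjusted p under 0.05, of which 1451 (7.67%) were positive and 1050 (5.55%) negative. Bleomycin lungs had 4098 genes higher (21.7%) and 3705 lower (19.6%) than saline lungs, 7803 (41.3%) in all. Ad-TGFβ1 lungs had 1605 higher (8.49%) and 2255 lower (11.9%) than empty vector lungs. The count of Ad-TGFβ1 calls, 3860 in all, was 2069 without empty vector library 5 and 6021 without empty vector library 1. With another method, limma voom with quality weights, the calls were 7938 for bleomycin and 7065 for Ad-TGFβ1. Over all genes the median difference was 0.04, with medians of -0.01 for the bleomycin effect and -0.02 for the Ad-TGFβ1 effect.

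Of the 2302 genes called in both effects, 2194 (95.3%) had the same sign and 108 had opposite signs. These 2302 genes were 29.5% of the bleomycin calls and 59.6% of the Ad-TGFβ1 calls. Among those of the same sign, the bleomycin effect was the larger in size for 1398 genes (63.7%). The effects had a Pearson r of 0.45 and a Spearman rho of 0.49 over the 18906 genes, which are not independent of each other. The effects share no library. Most positive differences, 1080 of 1451, belonged to genes that rose in bleomycin lungs and were not called in Ad-TGFβ1 lungs. Most negative differences, 786 of 1050, belonged to genes that fell in bleomycin lungs and were not called in Ad-TGFβ1 lungs. A further 114 negative differences came from genes that rose in Ad-TGFβ1 lungs alone, and 100 positive ones from genes that fell there alone. In 815 genes both effects were called up, and in 1149 both were called down, with no call in the difference.

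**Figure D2:**
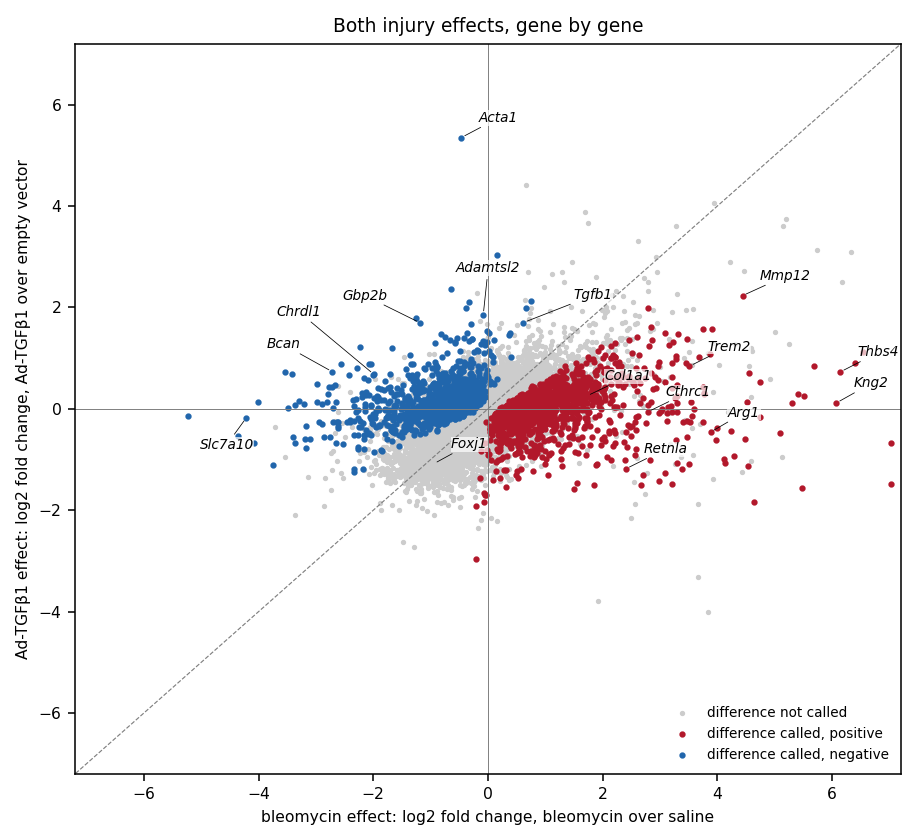
Log2 fold change of bleomycin over saline lungs (horizontal axis) against that of Ad-TGFβ1 over empty vector lungs (vertical axis), 1 point per gene. Red and blue points are the 1451 positive and 1050 negative calls in the difference, the dashed line marks equal effects, and 2 genes lie outside the axes. The colored points spread mostly along the horizontal axis.

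The controls themselves differed, which enters every difference. Empty vector lungs had 2580 genes higher (13.6%) and 1897 lower (10.0%) than saline lungs. Of the 1451 positive differences, 686 were also higher in empty vector than in saline lungs and 31 lower. Of the 1050 negative differences, 533 were also lower in empty vector lungs and 18 higher. For those of them that bleomycin also moved that way, the Ad-TGFβ1 effect is measured from a control that already stood on the same side. Empty vector and saline lungs enter the difference and the comparison of the controls with the same signs. Part of the match between these calls is therefore fixed in advance. How much of a difference comes from the controls was not tested. The levels in all 4 groups are given for some of the genes named. For genes given by effects or a difference alone, the part of the controls is not shown.

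Tgfb1, the gene for the ligand that the virus carries, stood high in every Ad-TGFβ1 lung. Its levels were 77.0, 84.6, 125, 88.3 and 89.1 CPM in bleomycin lungs, against 66.4, 58.9, 54.3, 72.1 and 50.8 CPM in saline lungs. In the virus model they were 246, 272, 217, 136 and 219 CPM in Ad-TGFβ1 lungs, against 78.9, 68.6, 67.6, 60.2 and 59.9 CPM in empty vector lungs. Neither pair of groups overlapped, and every Ad-TGFβ1 lung was above every bleomycin lung. The Ad-TGFβ1 effect of 1.70 ± 0.16 (log2 ± SE) exceeded the bleomycin effect of 0.62 ± 0.16, a difference of -1.09 ± 0.22 (edgeR adjusted p = 0.00263). Because the transgene is mouse Tgfb1, counts of Tgfb1 (ENSMUSG00000002603, chromosome 7 from 25687002 to 25705077 on GRCm38) may sum reads of the lung's own gene and of the virus.

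Genes of the TGF-β pathway had differences on both sides. Of 17 tested ligands, latency proteins and activating integrins, 14 rose with bleomycin (background 21.7%) and 9 with Ad-TGFβ1 (background 8.49%), and 5 had a positive (background 7.67%) and 2 a negative difference (background 5.55%), or 4 negative without the 3 libraries, with a median of 0.10. The positive count was 2 without empty vector library 3 or saline library 3. It was 3 without Ad-TGFβ1 library 3, 4 or 5, empty vector library 1 or 4, or saline library 2, 4 or 5. Itgav, the α chain of the integrins that release latent TGF-β, rose in both models, by 0.91 with bleomycin and 0.36 with Ad-TGFβ1 (difference 0.55). Ltbp4, a protein that tethers latent TGF-β to the matrix, fell by 1.25 in bleomycin lungs and had an uncalled effect of -0.07 in Ad-TGFβ1 lungs (difference -1.18). Among 11 receptors and SMADs, 1 difference was positive, a share near the background of 7.67%, and 3 were negative (background 5.55%). The negative ones were the endothelial co-receptor Eng (-1.03), the endothelial type I receptor Acvrl1 (-0.77, lost without empty vector library 3) and the co-receptor Tgfbr3 (-0.64). Of 18 targets and feedback inhibitors, 8 rose (background 21.7%) and 5 fell (background 19.6%) with bleomycin, and 6 rose (background 8.49%) and 1 fell (background 11.9%) with Ad-TGFβ1. The 6 were 3 without Ad-TGFβ1 library 1 or 2, and 10 without empty vector library 1. In the controls 6 of the 18 were lower in empty vector than in saline lungs (background 10.0%) and none higher, or 8 and 2 without the 3 libraries. In the difference 2 were positive (background 7.67%) and 4 negative (background 5.55%), or 4 and 7 without the 3 libraries, the positive count was 4 without empty vector library 1 or 5, and the negative count was 1 or 2 in 11 of the 20 fits that left out 1 library. Examples were Tgfbi, a secreted matrix protein induced by TGF-β (0.79, lost in 10 of those 20 fits), and the inhibitory SMAD gene Smad6 (-1.0, lost in 15).

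Activin and BMP signaling, run by relatives of TGF-β, had calls on both sides too. Of 23 tested genes, 7 had a positive (background 7.67%) and 4 a negative difference (background 5.55%), the positive count was 4 without empty vector library 4, and the negative count was 7 without the 3 libraries. Inhba, the activin A subunit, rose by 2.51 in bleomycin lungs and had an uncalled effect of -0.33 in Ad-TGFβ1 lungs, a difference of 2.84. Follistatin (Fst), which binds activin, had a difference of 2.24, and the BMP antagonist Grem1 one of 3.72. Chrdl1, another BMP antagonist (ENSMUSG00000031283, chromosome X from 143285674 to 143394262), moved in opposite directions. It stood at 9.52, 7.54, 6.04, 7.42 and 4.34 CPM in bleomycin lungs, against 26.0, 27.1, 32.0, 27.0 and 26.2 CPM in saline lungs. In Ad-TGFβ1 lungs it stood at 26.1, 23.8, 21.6, 25.1 and 25.2 CPM, against 23.2, 14.2, 11.2, 12.4 and 14.8 CPM in empty vector lungs. Bleomycin lungs were all below saline lungs, while Ad-TGFβ1 lungs overlapped empty vector library 1 and lay above the other 4 empty vector lungs. The effects were -1.99 ± 0.18 and 0.68 ± 0.17, and the difference -2.67 ± 0.25 (edgeR adjusted p = 2.02e-06).

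Macrophage genes rose in both models and further with bleomycin. Of 24 tested genes of tissue and scar-associated macrophages, 22 rose in bleomycin lungs (background 21.7%) and 16 rose in Ad-TGFβ1 lungs (background 8.49%), with 1 fall in Ad-TGFβ1 lungs. In the difference 19 of 24 were positive (background 7.67%) and none was negative (background 5.55%), with a median of 1.21 against 0.04 over all genes. The count was 20 without the 3 libraries and 18 to 21 with any single library left out. Between the controls, 8 of the 24 were higher in empty vector than in saline lungs (background 13.6%) and 1 lower (background 10.0%). Those 8 were 12 without the 3 libraries, 2 without empty vector library 3 or 4, and 5 without saline library 4. The lists were written with earlier results of these data known, so a list's count is a description.

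Trem2, a lipid receptor of scar-associated macrophages (ENSMUSG00000023992, chromosome 17 from 48346401 to 48354147), was even among bleomycin lungs. It had 21.2, 25.1, 22.2, 22.9 and 23.2 CPM in bleomycin lungs, against 1.20, 1.91, 2.26, 2.25 and 2.46 CPM in saline lungs. In Ad-TGFβ1 lungs it had 4.90, 6.44, 5.43, 4.44 and 4.78 CPM, against 2.81, 2.68, 4.12, 3.17 and 1.60 CPM in empty vector lungs. Neither pair overlapped, and the bleomycin effect was 3.51 ± 0.19 against an Ad-TGFβ1 effect of 0.84 ± 0.19, a difference of 2.67 ± 0.27 (edgeR adjusted p = 3.46e-06). Mmp12, the macrophage elastase, rose in both models. Its levels were 43.9, 66.7, 72.9, 45.5 and 67.6 CPM in bleomycin lungs, against 3.38, 2.16, 2.57, 2.43 and 3.11 CPM in saline lungs. They were 20.0, 17.8, 12.6, 10.6 and 14.4 CPM in Ad-TGFβ1 lungs, against 4.99, 4.02, 2.39, 3.07 and 1.50 CPM in empty vector lungs. Mmp12 did not overlap in either model, with a difference of 2.21 ± 0.35 (edgeR adjusted p = 0.000357). The membrane glycoprotein gene Gpnmb rose by 3.16 and 1.27, the bone and macrophage protease gene Ctsk by 2.46 and 0.65, and the complement gene C1qb by 2.26 and 0.85. The matrix phosphoprotein gene Spp1 rose by 2.97 with bleomycin and had an uncalled effect of 0.57 with Ad-TGFβ1. Its controls differed, at 29.2 ± 26.1 CPM in empty vector lungs and 93.6 ± 24.6 CPM in saline lungs (SD, n = 5 each).

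Among genes of alternative activation, Arg1 and Retnla had positive differences. Arg1, the arginase of alternatively activated macrophages, had 3.20, 10.5, 22.6, 4.11 and 6.80 CPM in bleomycin lungs, against 0.825, 0.498, 0.622, 0.180 and 1.07 CPM in saline lungs. It had 0.634, 1.07, 0.764, 1.35 and 1.32 CPM in Ad-TGFβ1 lungs, against 1.69, 1.44, 1.98, 1.19 and 0.601 CPM in empty vector lungs. Only the bleomycin lungs stood apart from their control, and the Arg1 difference was 4.34 ± 0.74 (edgeR adjusted p = 0.000648). Retnla, a secreted marker of the same state (ENSMUSG00000061100, chromosome 16 from 48842551 to 48844461), was called in opposite directions. It had 111, 161, 269, 134 and 268 CPM in bleomycin lungs, against 18.8, 23.4, 79.4, 21.7 and 34.2 CPM in saline lungs. It had 27.1, 30.0, 33.6, 33.0 and 35.0 CPM in Ad-TGFβ1 lungs, against 45.1, 39.4, 139, 77.9 and 57.8 CPM in empty vector lungs. Neither pair overlapped, with effects of 2.41 and -1.18 and a difference of 3.59 ± 0.54 (edgeR adjusted p = 0.000237). Of 13 tested type 2 immunity genes, these and the IL-33 receptor gene Il1rl1 (1.31) were the positive differences (background 7.67%), and none was negative. Nos2, the inducible nitric oxide synthase associated with classical activation, rose in both models, by 2.03 and 0.72. Alveolar macrophage genes were mixed, with 2 positive (background 7.67%) and 3 negative differences (background 5.55%) among 14, or 2 and 6 without empty vector library 1, and Krt79 (-3.45) and the lipid droplet gene Cidec (-2.67) had the lowest. Cidec is also a fat cell gene. The fat cell list had a median difference of -2.14, with 1 of its 6 tested genes called negative, or 5 without bleomycin library 1. Its mean log2 CPM was 2.45 in bleomycin library 1 and -1.18 to 0.18 in the other 4 bleomycin lungs, against 0.47 to 2.87 in saline lungs, 0.12 to 2.82 in Ad-TGFβ1 lungs and 0.19 to 2.79 in empty vector lungs. Its part in these differences was not tested.

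**Figure D3:**
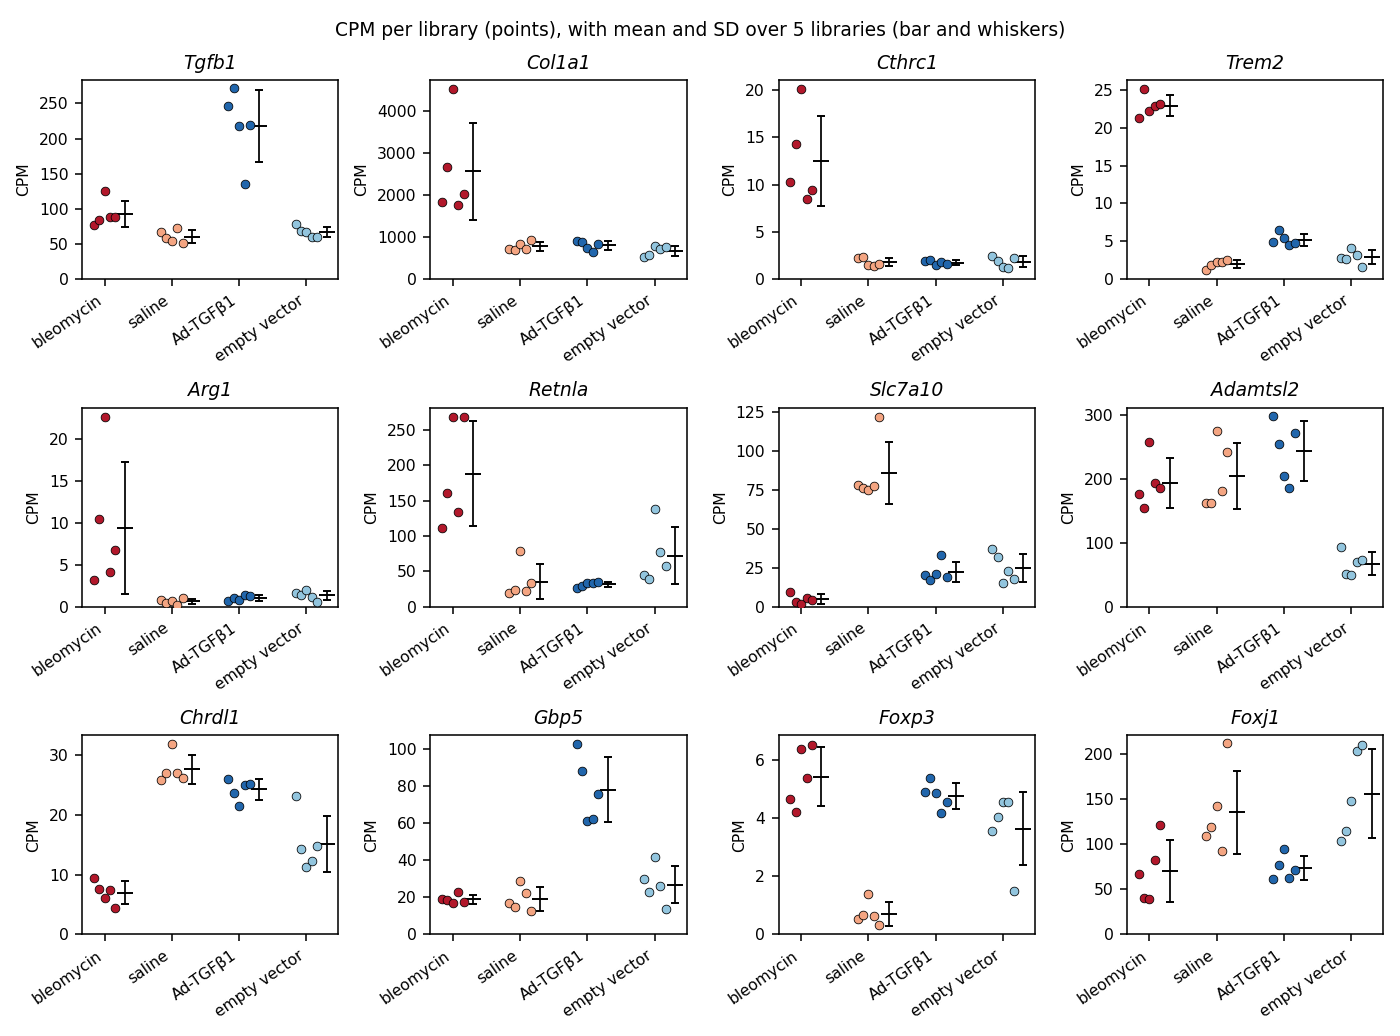
CPM of 12 genes in each library, by group, with the mean and SD over 5 libraries beside the points. The genes shown were selected after their values were seen. Bleomycin and saline lungs overlap in the panels of Adamtsl2, Gbp5 and Foxj1.

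Activated fibroblast genes rose widely in bleomycin lungs and less in Ad-TGFβ1 lungs. Of 20 tested, 15 rose with bleomycin (background 21.7%) and 6 with Ad-TGFβ1 (background 8.49%), none fell, and 11 had a positive difference (background 7.67%) with a median of 1.05. No difference was negative, but 3 were without empty vector library 1. Between the controls, 6 of the 20 were lower in empty vector than in saline lungs (background 10.0%), or 9 without the 3 libraries, and 1 was higher (background 13.6%). The 6 that rose with Ad-TGFβ1 were 3 without Ad-TGFβ1 library 1, empty vector library 4 or empty vector library 5. Cthrc1, a secreted protein of matrix-making fibroblasts (ENSMUSG00000054196), had 10.3, 14.3, 20.1, 8.50 and 9.46 CPM in bleomycin lungs, against 2.25, 2.32, 1.48, 1.35 and 1.61 CPM in saline lungs. It had 1.90, 1.98, 1.44, 1.84 and 1.62 CPM in Ad-TGFβ1 lungs, against 2.49, 1.96, 1.32, 1.19 and 2.20 CPM in empty vector lungs. Every bleomycin lung was above every other lung, and Ad-TGFβ1 and empty vector lungs overlapped throughout. The Cthrc1 difference was 2.85 ± 0.37 (edgeR adjusted p = 4.99e-05), with an Ad-TGFβ1 effect of -0.06 ± 0.27.

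Some other matrix genes of fibroblasts rose in both models. Ltbp2, a matrix protein of elastic microfibrils, rose by 1.76 with bleomycin and 1.66 with Ad-TGFβ1, and the secreted signaling protein gene Ccn4 by 1.87 and 1.66. Their differences of 0.10 (95% interval -0.36 to 0.55) and 0.21 (-0.71 to 1.13) were not called. Fn1, which encodes fibronectin, rose in both, by 2.28 and 0.92, with a difference of 1.36 ± 0.36 (edgeR adjusted p = 0.0168), and the tenascin gene Tnc rose by 3.28 and 1.04. Postn, the matrix protein periostin, had effects of 0.09 and 0.71, and its difference of -0.62 was not called (edgeR adjusted p = 0.219) except without the 3 libraries (adjusted p = 0.00677). Lrrc15, a membrane protein of activated fibroblasts, reached 1.88 to 11.4 CPM in bleomycin lungs and at most 0.321 CPM in any other lung. Since both groups of the virus model lay near 0 for Lrrc15, no fold is given, and its call was lost without the 3 libraries and in 9 of the 20 fits that left out 1 library.

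Collagen chains rose more often with bleomycin too. Of 23 tested, 18 rose with bleomycin (background 21.7%), and 7 rose (background 8.49%) and 1 fell with Ad-TGFβ1, or 4 rose without Ad-TGFβ1 library 1 or 2 or empty vector library 2. In the difference 9 were positive (background 7.67%) and none negative (median 0.60). In the controls 8 of the 23 were lower in empty vector than in saline lungs (background 10.0%), or 13 without bleomycin library 3, and none was higher. Col1a1, the main chain of collagen I, had 1834, 2656, 4528, 1760.4 and 2035 CPM in bleomycin lungs, against 710.0, 701, 831, 711 and 925 CPM in saline lungs. It had 908, 883, 744, 650.2 and 827 CPM in Ad-TGFβ1 lungs, against 514, 578, 775, 725 and 774 CPM in empty vector lungs. The bleomycin lungs did not overlap saline lungs, whereas the groups of the virus model did. The Col1a1 difference was 1.47 ± 0.29 (edgeR adjusted p = 0.00221). Col11a1, a minor fibrillar chain, rose by 5.69 in bleomycin lungs, to 19.0 ± 8.03 CPM, against 0.363 ± 0.143 CPM in saline lungs (SD, n = 5 each). In the virus model Col11a1 stood at 0.372 ± 0.306 CPM in Ad-TGFβ1 lungs and 0.203 ± 0.0308 CPM in empty vector lungs, and its difference was 4.85 ± 0.88. Col3a1 rose in both models, by 1.07 and 0.47, and its difference of 0.60 ± 0.19 (edgeR adjusted p = 0.045) was lost in 12 of the 20 fits that left out 1 library and without the 3 libraries. It held in those without Ad-TGFβ1 library 1 or 2, bleomycin library 1, 4 or 5, empty vector library 1 or 2, or saline library 5. Enzymes and chaperones of collagen had 2 positive (background 7.67%) and 2 negative differences (background 5.55%) among 19, or none and 8 without the 3 libraries, and 6 negative ones without empty vector library 1. Of these 19 genes, 11 rose with bleomycin (background 21.7%) and 9 with Ad-TGFβ1 (background 8.49%). The 9 were 5 without Ad-TGFβ1 library 1 and 15 without the 3 libraries. In the controls 10 of the 19 were lower in empty vector than in saline lungs (background 10.0%), or 14 without the 3 libraries, and none was higher. Among them, the lysyl oxidase gene Loxl2 had a difference of 1.01, which was lost in 16 of the 20 fits that left out 1 library, and the lysyl hydroxylase gene Plod2 one of -1.24.

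Elastic fibre genes rose in both models, 11 of 18 with bleomycin (background 21.7%) and 11 of 18 with Ad-TGFβ1 (background 8.49%). In bleomycin lungs 4 fell, a share near the background of 19.6%, and in Ad-TGFβ1 lungs none fell (background 11.9%). Eln, which encodes tropoelastin, rose by 1.33 with bleomycin and 1.62 with Ad-TGFβ1, and its difference of -0.29 (95% interval -0.79 to 0.21) was not called. The difference was positive for 2 of the 18 (background 7.67%) and negative for 5 (background 5.55%). Adamtsl2, a protein that binds fibrillin microfibrils (ENSMUSG00000036040, chromosome 2 from 27079379 to 27108981), had 176, 154, 258, 193 and 185 CPM in bleomycin lungs, against 162, 162, 274, 181 and 242 CPM in saline lungs. It had 298, 254, 204, 186 and 272 CPM in Ad-TGFβ1 lungs, against 93.0, 50.8, 48.8, 70.4 and 72.3 CPM in empty vector lungs. The empty vector lungs were the low group, and the other 3 groups overlapped. The Ad-TGFβ1 effect was 1.86 ± 0.20, the bleomycin effect was -0.08 ± 0.19, and the difference was -1.94 ± 0.27 (edgeR adjusted p = 0.000102), while the change of empty vector over saline lungs was -1.61. In the elastic fibre list 13 of 18 genes were lower in empty vector than in saline lungs (background 10.0%). Fbn2, the fibrillin of developing tissue, had the highest difference of the list, 1.90.

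Alveolar fibroblast genes, which mark the resting fibroblasts of the air sacs, fell in bleomycin lungs. All 15 tested fell with bleomycin (background 19.6%), while 5 rose (background 8.49%) and 3 fell (background 11.9%) with Ad-TGFβ1. The 5 were 8 without empty vector library 1 or without the 3 libraries, and 3 without Ad-TGFβ1 library 1 or empty vector library 4 or 5, and the 3 that fell were 1 without Ad-TGFβ1 library 2. In the difference 13 of 15 were negative (background 5.55%) and none positive, with a median of -1.37. In the controls 13 of 15 were also lower in empty vector than in saline lungs (background 10.0%), with a median of -0.89. Slc7a10, an amino acid transporter gene and the member with the lowest difference (ENSMUSG00000030495, chromosome 7 from 35186385 to 35201114), had 9.77, 2.75, 1.51, 5.37 and 4.13 CPM in bleomycin lungs, against 78.6, 76.5, 75.2, 77.6 and 122 CPM in saline lungs. It had 20.3, 17.3, 21.1, 33.5 and 19.3 CPM in Ad-TGFβ1 lungs, against 36.9, 32.0, 15.5, 23.0 and 18.1 CPM in empty vector lungs. Bleomycin lungs were the lowest group and saline lungs the highest, and the groups of the virus model lay between them and overlapped each other. The Slc7a10 difference was -4.04 ± 0.46 (edgeR adjusted p = 1.41e-05), and the change of empty vector over saline lungs was -1.77. Mfap4, a microfibril protein that these fibroblasts make, was called in opposite directions. It had 363, 268, 251, 373 and 280.1 CPM in bleomycin lungs, against 388, 423, 487, 358 and 486 CPM in saline lungs. It had 360.3, 325, 277, 264 and 273 CPM in Ad-TGFβ1 lungs, against 241, 163, 130.0, 145 and 104 CPM in empty vector lungs. For Mfap4 bleomycin libraries 1 and 4 lay above saline library 4, and Ad-TGFβ1 and empty vector lungs did not overlap. Its effects were -0.48 and 0.94, with a difference of -1.42 ± 0.24 (edgeR adjusted p = 0.000739). Tcf21, the transcription factor of these cells, had a difference of -1.65 and the growth factor receptor gene Pdgfra one of -1.37.

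**Figure D4:**
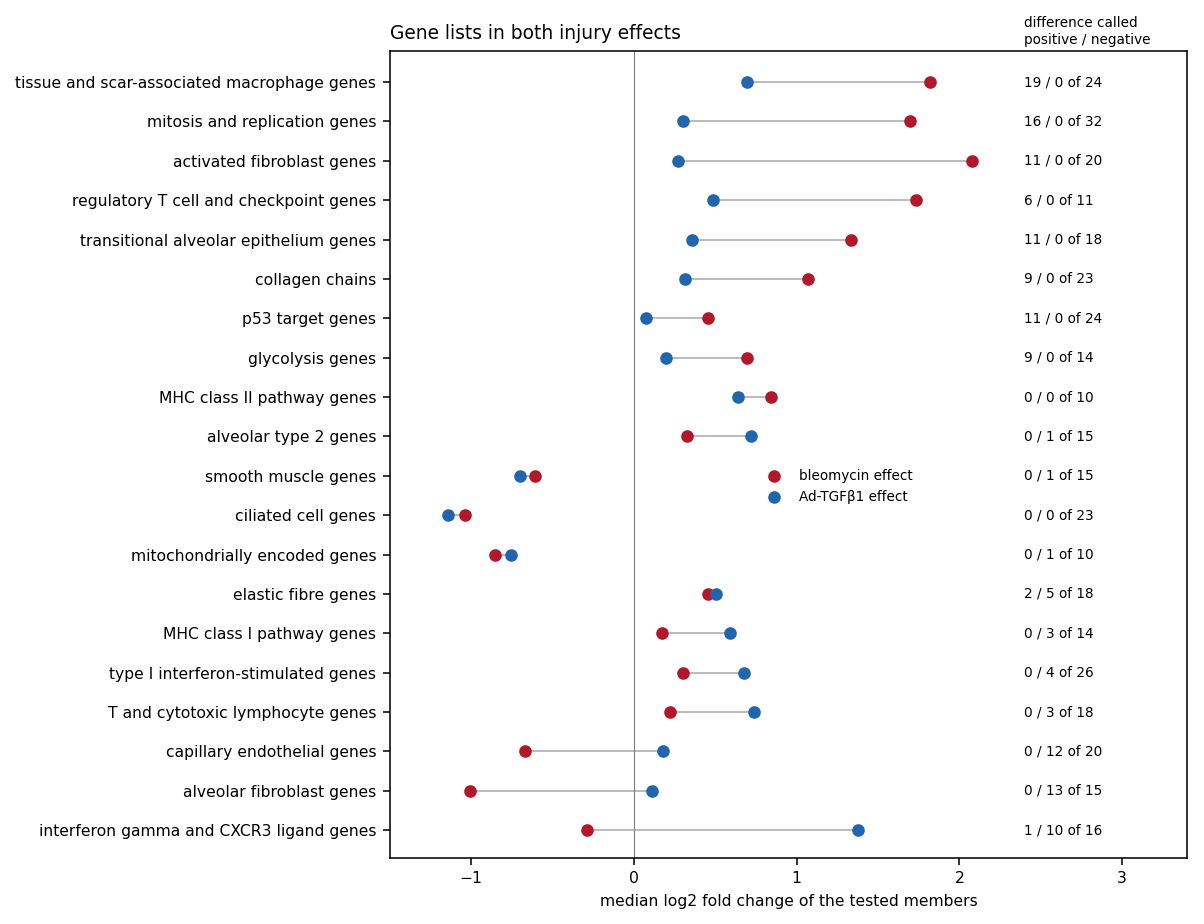
Median log2 fold change of the tested members of 20 gene lists in the bleomycin effect (red) and the Ad-TGFβ1 effect (blue), with the number of members called positive and negative in the difference. The activated fibroblast list has the higher median with bleomycin, and the interferon gamma list has it with Ad-TGFβ1.

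Of 29 matrix proteases and inhibitors, 9 had a positive (background 7.67%) and 1 a negative difference (background 5.55%), or 10 and 4 without the 3 libraries. The metalloproteinase inhibitor gene Timp1 rose by 3.21 in bleomycin lungs, to 40.8 ± 30.8 CPM, against 4.41 ± 1.21 CPM in saline lungs, and its difference was 2.30 ± 0.52 (edgeR adjusted p = 0.00629). The membrane protease gene Mmp14 rose in both models, by 1.62 and 0.45. Thbs4, a matrix thrombospondin, had 26.4, 44.2, 55.4, 25.6 and 26.9 CPM in bleomycin lungs, against 0.0750, 0.747, 0.856, 0.360 and 0.428 CPM in saline lungs. It had 0.577, 0.826, 0.509, 0.483 and 1.40 CPM in Ad-TGFβ1 lungs, against 0.322, 0.619, 0.907, 0.396 and 0 CPM in empty vector lungs. Bleomycin lungs stood above every other lung, and Ad-TGFβ1 and empty vector lungs overlapped at low levels. The Thbs4 difference was 5.42 ± 0.81 (edgeR adjusted p = 0.000194).

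Interferon gamma genes rose in Ad-TGFβ1 lungs. All 16 tested genes of this list rose with Ad-TGFβ1 (background 8.49%), and 10 had a negative (background 5.55%) and 1 a positive difference (background 7.67%), with a median of -1.39. With bleomycin 2 rose (background 21.7%), or 4 without saline library 3, and 2 fell (background 19.6%). The positive one was Nos2, with a difference of 1.31. The guanylate-binding protein gene Gbp5, whose product helps cells to attack microbes (ENSMUSG00000105504), had 19.0, 18.8, 16.9, 22.6 and 17.2 CPM in bleomycin lungs, against 16.7, 14.7, 28.9, 22.5 and 12.5 CPM in saline lungs. It had 103, 87.9, 61.4, 62.3 and 75.9 CPM in Ad-TGFβ1 lungs, against 29.8, 23.0, 41.6, 26.2 and 13.7 CPM in empty vector lungs. Every Ad-TGFβ1 lung was above every other lung, and the Gbp5 difference was -1.56 ± 0.34 (edgeR adjusted p = 0.00437). Ido1, a tryptophan-degrading enzyme induced by interferon gamma, had a difference of -2.37, and Gbp2b, Gbp2 and Gbp6 had -2.87, -1.97 and -2.02. These guanylate-binding protein genes are close paralogs, and reads may be split among them.

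The promoters of 3 genes of this list are shown because interferons act through short letter patterns near the start of such genes. They come from RefSeq on GRCm38.p6, from 250 bases before to 50 bases after the start, in the direction of the gene. Capitals mark matches to TTTCNNTTTC, the interferon-stimulated response element, or TTCNNNGAA, the gamma-activated site, on either strand.
Gbp5 (chr3:142496684-142496983, plus strand): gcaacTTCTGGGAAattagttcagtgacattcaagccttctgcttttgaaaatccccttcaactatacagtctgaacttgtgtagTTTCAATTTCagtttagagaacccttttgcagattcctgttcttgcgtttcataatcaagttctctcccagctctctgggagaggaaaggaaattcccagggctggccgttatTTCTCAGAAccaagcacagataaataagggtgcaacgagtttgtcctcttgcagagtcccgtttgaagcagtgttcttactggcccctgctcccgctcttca
Gbp2 (chr3:142620413-142620712, plus strand): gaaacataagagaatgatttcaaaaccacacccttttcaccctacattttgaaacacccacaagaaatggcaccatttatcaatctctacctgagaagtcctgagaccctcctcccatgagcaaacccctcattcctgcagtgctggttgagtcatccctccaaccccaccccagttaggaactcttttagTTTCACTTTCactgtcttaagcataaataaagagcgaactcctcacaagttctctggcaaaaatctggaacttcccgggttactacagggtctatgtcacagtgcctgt
Irf1 (chr11:53769764-53770063, plus strand): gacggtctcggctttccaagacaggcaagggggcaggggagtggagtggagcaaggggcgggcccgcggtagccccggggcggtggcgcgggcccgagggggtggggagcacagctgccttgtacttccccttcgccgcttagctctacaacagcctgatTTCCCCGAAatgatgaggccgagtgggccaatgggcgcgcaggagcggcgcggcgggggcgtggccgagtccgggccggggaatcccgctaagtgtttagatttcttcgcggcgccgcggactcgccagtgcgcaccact
Gbp5 held a match to the response element at base -165 and matches to the gamma-activated site at -245 and -52, none of which overlapped. Gbp2 held the response element at -59. Irf1, a transcription factor that interferon gamma induces, held a gamma-activated site at -90. Of the 17 list genes, 10 had a promoter in the table, and 8 of these (80%) held the response element, against 3.99% of all 27025 genes with a promoter. The gamma-activated site stood in 4 of the 10 (40%), against 9.55% of all. A match is a description of letters and not a measured binding site. Irf1 had a difference of -0.83, from effects of -0.32 with bleomycin and 0.51 with Ad-TGFβ1, and Gbp2 had effects of -0.30 and 1.67.

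Cxcl9, a chemokine that draws T cells through the receptor CXCR3, had 7.24, 5.38, 4.85, 6.53 and 2.10 CPM in bleomycin lungs, against 0.750, 0.0830, 7.47, 0.450 and 0.107 CPM in saline lungs. It had 98.9, 103, 63.3, 52.2 and 77.7 CPM in Ad-TGFβ1 lungs, against 12.3, 5.26, 22.7, 10.3 and 1.60 CPM in empty vector lungs. Ad-TGFβ1 lungs were far above all others, saline library 3 reached above all bleomycin lungs, and the change of empty vector over saline lungs was 2.49. The Cxcl9 difference of -1.44 ± 0.95 was not called (edgeR adjusted p = 0.353, 95% interval -3.41 to 0.53).

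Most type I interferon-stimulated genes rose in Ad-TGFβ1 lungs. Of 26 tested, 20 rose with Ad-TGFβ1 (background 8.49%), or 13 without Ad-TGFβ1 library 1, while 8 rose (background 21.7%) and 1 fell (background 19.6%) with bleomycin. The difference was negative for 4 (background 5.55%), or 7 without empty vector library 3, and positive for none. Isg15, a ubiquitin-like protein induced by type I interferon, rose in both, by 0.87 and 1.25, and its difference of -0.38 was not called. The pathway that loads peptides on MHC class I rose in 11 of 14 genes with Ad-TGFβ1 (background 8.49%) and in 3 with bleomycin, a share near the background of 21.7%, with 3 negative differences (background 5.55%), or 5 without empty vector library 3. The 3 with bleomycin were 0 or 1 without bleomycin library 3, 4 or 5 or saline library 2, 3 or 5, and 5 without empty vector library 5.

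T and cytotoxic lymphocyte genes rose in 9 of 18 cases with Ad-TGFβ1 (background 8.49%). With bleomycin 4 rose, a share near the background of 21.7%, and 2 fell (background 19.6%). Negative differences were called for 3 (background 5.55%), the granule protease gene Gzmb (-2.29), the transcription factor gene Tbx21 (-1.41) and the granule protein gene Nkg7 (-1.39), and for 6 genes without empty vector library 1 and 5 without bleomycin library 1. Gzmb had 0.590, 0.409, 1.43, 0.894 and 0.911 CPM in bleomycin lungs, against 1.65, 1.58, 1.09, 2.07 and 0.964 CPM in saline lungs. It had 3.23, 4.13, 3.39, 3.67 and 3.01 CPM in Ad-TGFβ1 lungs, against 2.57, 1.55, 0.825, 0.891 and 0.301 CPM in empty vector lungs. All Ad-TGFβ1 lungs lay above all the others for Gzmb. In the controls, 11 of the 18 genes were higher in empty vector than in saline lungs (background 13.6%). Cd3e, a chain of the T cell receptor complex, rose in both models by 0.91 and 0.74, and its difference of 0.17 was not called.

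Regulatory T cell and checkpoint genes rose widely in bleomycin lungs, and 10 of the 11 tested were also higher in empty vector than in saline lungs (background 13.6%), with a median of 1.14. Of the 11, 10 rose with bleomycin (background 21.7%) and 3 with Ad-TGFβ1 (background 8.49%), and 6 had a positive difference (background 7.67%), or 3 without Ad-TGFβ1 library 4, empty vector library 3 or 4, or saline library 1 or 2. The 3 that rose with Ad-TGFβ1 were 1 without Ad-TGFβ1 library 1, 2, 3 or 5 or empty vector library 2 or 5. Foxp3, their master transcription factor, had 4.63, 4.21, 6.36, 5.37 and 6.52 CPM in bleomycin lungs, against 0.525, 0.664, 1.40, 0.631 and 0.321 CPM in saline lungs. It had 4.90, 5.37, 4.84, 4.15 and 4.56 CPM in Ad-TGFβ1 lungs, against 3.54, 4.02, 4.54, 4.55 and 1.50 CPM in empty vector lungs. All saline lungs lay below all other lungs, and the levels of bleomycin and Ad-TGFβ1 lungs overlapped. The Foxp3 difference of 2.49 ± 0.40 (edgeR adjusted p = 0.000349) stood beside a change of 2.31 between the controls, empty vector over saline.

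Genes of antibody-secreting cells also differed between the controls. Jchain, the chain that joins IgA and IgM, had 54.4, 18.9, 35.1, 33.5 and 14.4 CPM in bleomycin lungs, against 3.60, 3.24, 3.03, 3.78 and 5.57 CPM in saline lungs. It had 114, 510.0, 333, 404 and 328 CPM in Ad-TGFβ1 lungs, against 405, 106, 803, 354 and 15.0 CPM in empty vector lungs. Bleomycin lungs were above all saline lungs but below all Ad-TGFβ1 lungs, and empty vector lungs spread over the whole range of the virus model and below it. The Jchain difference of 3.03 ± 0.96 (edgeR adjusted p = 0.0409) was lost in 13 of the 20 fits that left out 1 library. It held in those without Ad-TGFβ1 library 2, bleomycin library 2 or 5, empty vector library 1, 2 or 5, or saline library 5. Of 13 plasma cell genes, 9 rose with bleomycin (background 21.7%) and none with Ad-TGFβ1 (background 8.49%), 6 had a positive difference (background 7.67%), and 12 were higher in empty vector than in saline lungs (background 13.6%). The 6 were 1 without empty vector library 3 or saline library 2, 3 or 4, 2 without bleomycin library 3, and 3 without Ad-TGFβ1 library 1, 3 or 4 or saline library 1. The mean log2 CPM of the plasma cell list ran from 5.72 to 7.35 in Ad-TGFβ1 lungs and from 3.72 to 7.70 in empty vector lungs, the lowest in library 5. Of 15 B cell genes, 14 were higher in empty vector than in saline lungs (background 13.6%), and none rose (background 21.7%) or fell (background 19.6%) with bleomycin. With Ad-TGFβ1 1 fell (background 11.9%), and 1 had a positive difference, a share near the background of 7.67%. The genes that fell with Ad-TGFβ1 were 4 without empty vector library 1 and 7 without the 3 libraries.

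**Figure D5:**
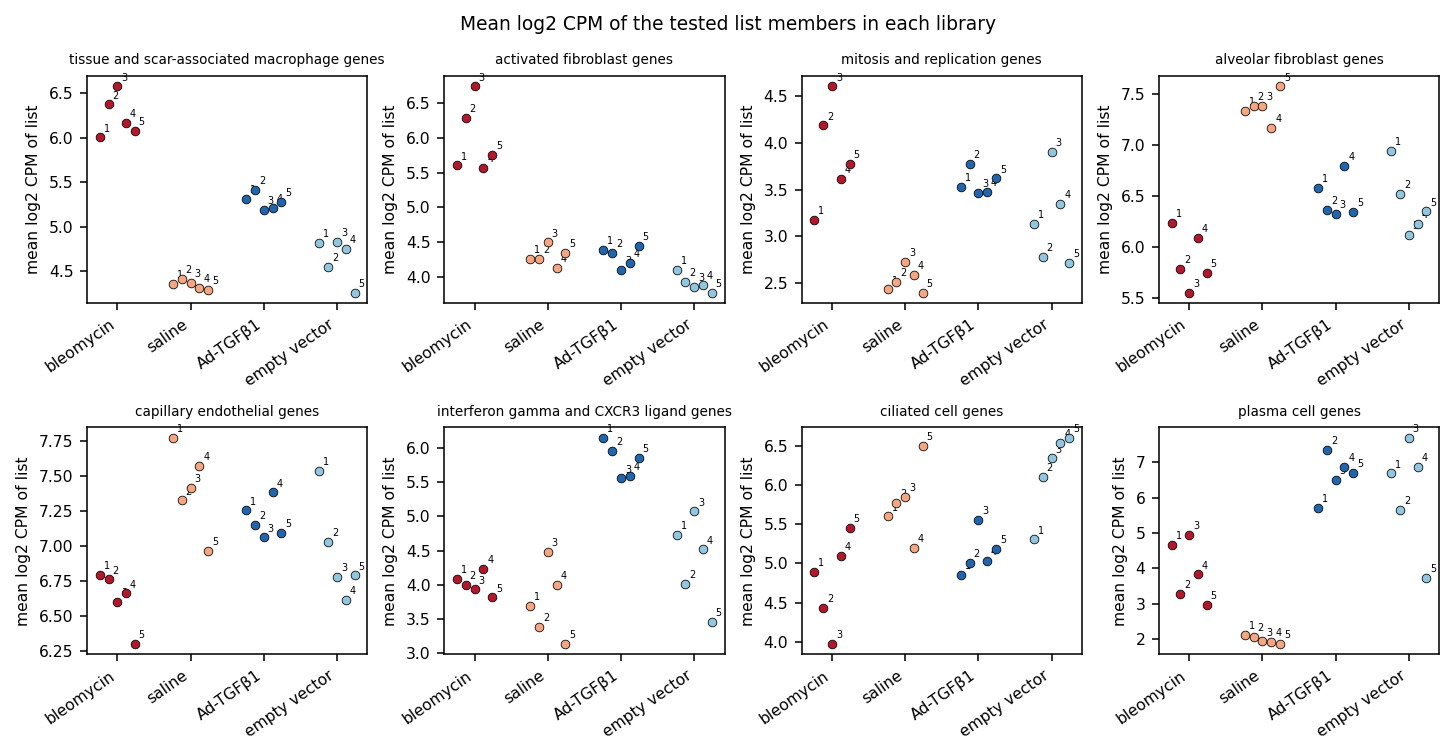
Mean log2 CPM over the tested members of 8 gene lists in each library, by group, with library numbers beside the points. Empty vector library 5 is the lowest of its group for plasma cell genes, at 3.72, and saline lungs are low for mitosis and plasma cell genes.

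Genes of dividing cells rose in every tested case with bleomycin. All 32 mitosis and replication genes rose in bleomycin lungs (background 21.7%), 2 rose in Ad-TGFβ1 lungs (background 8.49%), and 16 had a positive difference (background 7.67%) and none a negative one. The 16 became 7 without empty vector library 3 and 21 without the 3 libraries, and the 2 became 6 without empty vector library 3. In the controls 16 of the 32 were higher in empty vector than in saline lungs (background 13.6%), or 25 without the 3 libraries. That count was 5 without empty vector library 3, and 8 to 10 without empty vector library 4 or saline library 1, 2, 4 or 5. Mki67, a nuclear protein of cycling cells, had 70.5, 153, 219, 95.9 and 116 CPM in bleomycin lungs, against 29.8, 37.8, 47.3, 36.1 and 35.1 CPM in saline lungs. It had 88.1, 114, 84.2, 98.2 and 95.8 CPM in Ad-TGFβ1 lungs, against 65.3, 39.5, 139, 87.2 and 38.3 CPM in empty vector lungs. Bleomycin and Ad-TGFβ1 lungs overlapped in level, and all of them lay above all saline lungs, with which empty vector libraries 2 and 5 overlapped. The Mki67 difference of 1.44 ± 0.43 (edgeR adjusted p = 0.031) was lost in 10 of the 20 fits that left out 1 library. These were the fits without Ad-TGFβ1 library 1, 3 or 4, bleomycin library 2 or 3, empty vector library 3 or 4, or saline library 1, 2 or 4. The cyclin gene Ccnb1 had a difference of 2.13 and its kinase partner Cdk1 one of 1.89. The promoter of Cdk1 is shown because a TTTGAA pattern, the cell cycle homology region, is known from such promoters, and capitals mark it on either strand.
Cdk1 (chr10:69352863-69353162, minus strand): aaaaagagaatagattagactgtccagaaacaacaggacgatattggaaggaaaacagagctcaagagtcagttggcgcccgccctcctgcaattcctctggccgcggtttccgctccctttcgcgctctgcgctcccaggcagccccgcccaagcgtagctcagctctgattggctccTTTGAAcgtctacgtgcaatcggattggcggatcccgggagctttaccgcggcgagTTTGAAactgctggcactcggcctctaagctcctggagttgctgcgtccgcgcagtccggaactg
In the promoter of Cdk1 the pattern began at bases -71 and -15. Of the 32 genes, 26 had a promoter in the table, and 13 of these (50%) held the pattern, against 20.2% of all promoters.

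Genes driven by p53, a transcription factor that responds to DNA damage, rose with bleomycin. Of 24 p53 targets, 16 rose (background 21.7%) and 1 fell with bleomycin. In the difference 11 were positive (background 7.67%) and none was negative (median 0.53). Between the controls, 9 of the 24 were higher in empty vector than in saline lungs (background 13.6%) and 3 lower (background 10.0%). Those 9 were 5 without saline library 2. With Ad-TGFβ1 1 rose (background 8.49%) and 4 fell (background 11.9%), or 6 rose and 5 fell without the 3 libraries. The 1 was 3 without bleomycin library 3 or empty vector library 1, and the 4 were 2 without Ad-TGFβ1 library 1 or 2 or empty vector library 4 or 5, and 1 without empty vector library 3. Eda2r, a p53-induced receptor gene, had 14.7, 17.1, 17.4, 12.2 and 14.8 CPM in bleomycin lungs, against 4.35, 6.06, 4.82, 5.50 and 3.85 CPM in saline lungs. It had 6.86, 8.09, 7.89, 6.28 and 6.25 CPM in Ad-TGFβ1 lungs, against 4.42, 5.05, 7.83, 6.53 and 6.71 CPM in empty vector lungs. Bleomycin lungs stood above all others, and Ad-TGFβ1 and empty vector lungs overlapped, with a difference of 1.42 ± 0.22 (edgeR adjusted p = 0.000304). Zmat3, a p53-induced RNA-binding protein, had a difference of 0.83, and Bax, which opens mitochondria in cell death, one of 0.51. Cdkn1a, the p53-induced cell cycle inhibitor p21, had 181, 176, 301, 177 and 172 CPM in bleomycin lungs, against 119.8, 100.1, 149.9, 134 and 82.9 CPM in saline lungs. It had 111, 110.4, 97.0, 80.5 and 102 CPM in Ad-TGFβ1 lungs, against 123, 35.0, 49.4, 63.1 and 53.5 CPM in empty vector lungs. Bleomycin lungs were above all saline lungs, and 4 of the 5 empty vector lungs were below all Ad-TGFβ1 lungs. The Cdkn1a difference of 0.15 ± 0.35 (95% interval -0.58 to 0.88) was not called.

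Genes of transitional alveolar epithelium, the keratin-high state between type 2 and type 1 cells, rose widely in bleomycin lungs. Of 18 genes, 17 rose with bleomycin (background 21.7%), and 6 rose (background 8.49%) and 1 fell (background 11.9%) with Ad-TGFβ1. Positive differences numbered 11 (background 7.67%), with a median of 0.84, a count of 9 to 11 with any single library left out. Cldn4, a tight junction gene, had 12.0, 23.5, 34.4, 20.4 and 23.3 CPM in bleomycin lungs, against 1.73, 4.15, 3.42, 1.80 and 5.03 CPM in saline lungs. It had 3.29, 3.88, 3.48, 2.90 and 4.26 CPM in Ad-TGFβ1 lungs, against 1.93, 7.94, 8.41, 6.53 and 11.1 CPM in empty vector lungs. Bleomycin lungs were above every other lung, and empty vector library 1 alone lay below the Ad-TGFβ1 lungs. The Cldn4 difference was 3.83 ± 0.51 (edgeR adjusted p = 6.23e-05). The keratins Krt8 and Krt19 had differences of 0.75 and 0.88, and Krt19 fell in Ad-TGFβ1 lungs (-0.43). Among mature alveolar genes, 5 of 15 type 2 genes were up with bleomycin (background 21.7%) and 11 with Ad-TGFβ1 (background 8.49%), and of 17 type 1 genes 9 were up with bleomycin and 7 with Ad-TGFβ1. The 11 were 7 without empty vector library 4 or 5, and the 5 were 3 without saline library 5 and 8 without the 3 libraries. In each of these lists 1 difference was called, a share near the background of 5.55%, negative for the surfactant protein gene Sftpa1 (-0.70, with 4 negative type 2 genes without empty vector library 1) and for the type 1 cell gene Igfbp2 (-1.43). Without empty vector library 1, the type 1 genes up with Ad-TGFβ1 were 14. The surfactant gene Sftpc and the type 1 receptor gene Ager had uncalled differences of -0.44 and 0.10.

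Capillary endothelial genes fell in bleomycin lungs, 14 of 20 (background 19.6%), and none fell in Ad-TGFβ1 lungs (background 11.9%). In Ad-TGFβ1 lungs 2 rose, a share near the background of 8.49%, or 9 without empty vector library 1. In the difference 12 were negative (background 5.55%) and none positive (median -0.81), and 9 of the 20 were lower in empty vector than in saline lungs (background 10.0%), or 4 without empty vector library 4 or saline library 1 and 5 without empty vector library 3 or 5. Tmem100, an endothelial membrane protein under BMP control, had 132, 146, 112, 99.1 and 61.5 CPM in bleomycin lungs, against 328, 267, 263, 306 and 151 CPM in saline lungs. It had 233, 242, 211, 200.1 and 169 CPM in Ad-TGFβ1 lungs, against 283, 137, 93.9, 71.2 and 92.1 CPM in empty vector lungs. Bleomycin lungs lay below saline lungs, and Ad-TGFβ1 lungs lay above 4 of the 5 empty vector lungs and below library 1. The Tmem100 difference was -1.90 ± 0.43 (edgeR adjusted p = 0.00579). Fibin (-2.25) and the endothelin receptor gene Ednrb (-1.76) were also negative. Among 12 venous and activated endothelial genes, 5 differences were positive (background 7.67%) and 2 negative (background 5.55%). The chemokine-binding receptor gene Ackr1 had a difference of 3.48 and rose by 3.77 with bleomycin.

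Glycolysis genes had 9 positive differences among 14 (background 7.67%) and no negative one, with 13 up in bleomycin lungs (background 21.7%) and 4 in Ad-TGFβ1 lungs (background 8.49%). The 4 were 1 without Ad-TGFβ1 library 1 or 2 or empty vector library 5, 2 without empty vector library 2 and 7 without bleomycin library 3. The glucose transporter gene Slc2a1 had a difference of 1.13 and the enolase gene Eno1 one of 0.87. Nuclear genes of the respiratory chain rose in 14 of 19 cases with bleomycin (background 21.7%) and in none with Ad-TGFβ1 (background 8.49%). Positive differences numbered 5 (background 7.67%), or 3 in 10 of the 20 fits that left out 1 library. Of these 19 genes, 13 were also higher in empty vector than in saline lungs (background 13.6%), with a median of 0.26. The list's mean log2 CPM ran from 5.68 to 5.94 in bleomycin lungs, against 5.42 to 5.68 in saline lungs. It ran from 5.71 to 5.89 in Ad-TGFβ1 lungs, against 5.67 to 5.89 in empty vector lungs. Mitochondrially encoded genes fell in both, 9 of 10 with bleomycin (background 19.6%) and 8 of 10 with Ad-TGFβ1 (background 11.9%), and in the difference mt-Nd3 (-1.15) was called and the other 9 were not. Among 16 clock genes, 3 differences were positive (background 7.67%) and 1 negative (background 5.55%), or 3 negative without empty vector library 1, and the output gene Dbp had a difference of 1.82. The change of empty vector over saline lungs was 2.22 for Dbp, and the labels give no time of day for the harvest.

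Genes of motile cilia fell in both models. Of 23 ciliated cell genes, 21 fell with bleomycin (background 19.6%) and 21 with Ad-TGFβ1 (background 11.9%), with medians of -1.04 and -1.14, and none was called in the difference by edgeR, nor without any single library or without the 3, but 1 was called negative with all 40 libraries in 1 fit. At an unadjusted p under 0.05 the difference held 1 of the 23, and DESeq2 called 0. Foxj1, the master transcription factor of motile cilia, had 66.5, 40.4, 38.5, 82.5 and 121 CPM in bleomycin lungs, against 109, 119, 142, 92.7 and 211 CPM in saline lungs. It had 61.4, 76.5, 95.0, 62.7 and 70.7 CPM in Ad-TGFβ1 lungs, against 103, 114, 147, 202 and 210.1 CPM in empty vector lungs. In the virus model the groups did not overlap, and in the bleomycin model bleomycin library 5 lay above 3 saline lungs. The Foxj1 difference was 0.14 with a 95% interval of -0.70 to 0.97. Mean log2 CPM of the ciliated list was 5.30 in empty vector library 1, within the 4.855 to 5.549 of Ad-TGFβ1 lungs. That library was the lowest of its group for ciliated and smooth muscle genes and the highest for type 1 genes (8.56). Saline library 5 was the reverse in its group, at 6.50 for ciliated, 7.29 for smooth muscle and 7.52 for type 1 genes. Whether the mix of tissue in each library bears on these effects was not tested. Smooth muscle genes fell in 9 of 15 cases with bleomycin (background 19.6%) and in 10 with Ad-TGFβ1 (background 11.9%), with 1 negative difference, the myosin kinase gene Mylk (-0.50), a share near the background of 5.55%. The 10 were 6 without Ad-TGFβ1 library 1 or empty vector library 3, 5 without Ad-TGFβ1 library 3, 4 without empty vector library 5, 3 without Ad-TGFβ1 library 2 and 2 without empty vector library 4. Acta2, the smooth muscle actin that myofibroblasts also make, fell in Ad-TGFβ1 lungs (-0.94), had an uncalled effect of -0.50 in bleomycin lungs, and its difference of 0.44 was not called (95% interval -0.32 to 1.19). Club and secretory airway genes fell in 7 of 15 cases with bleomycin (background 19.6%) and in 8 with Ad-TGFβ1 (background 11.9%), with 1 negative difference (background 5.55%), and the 8 were 5 without Ad-TGFβ1 library 1 and 4 without Ad-TGFβ1 library 4 or empty vector library 4. Genes of MHC class II rose in 7 of 10 cases with bleomycin (background 21.7%) and in 7 with Ad-TGFβ1 (background 8.49%), with no difference called, or with 3 positive ones without the 3 libraries. In the controls 9 of the 10 were higher in empty vector than in saline lungs (background 13.6%), or 5 without empty vector library 3.

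Genes with large effects in both models included, among those that rose, Ankrd34b (5.15 with bleomycin and 3.61 with Ad-TGFβ1), the noncoding RNA H19 (2.72 and 2.58) and Mmp12. The cell cycle inhibitor gene Cdkn2a rose by 2.53 and 2.12, the MHC gene H2-M2 by 2.35 and 2.23, and the antibody receptor gene Fcgr4 by 1.99 and 1.96. Among those that fell were the glycoprotein receptor gene Asgr1 (-3.37 and -2.10), Entpd8 (-2.86 and -1.91) and the transporter gene Slc16a11 (-1.70 and -1.47). None of these except Mmp12 was called in the difference. Among genes averaging at least 1 CPM, those widest apart on the positive side included Kng2, Lrrc15 and Thbs4, the Wnt antagonist gene Frzb at 5.43, whose call was lost without empty vector library 1, and the Wnt modulator gene Dkk2 at 5.22. The glycosyltransferase gene Gcnt4 had a difference of 5.19 and the EGF receptor ligand gene Ereg one of 4.91. Kng2, a kininogen gene, had 19.1 ± 2.68 CPM in bleomycin lungs, against 0.270 ± 0.251 CPM in saline lungs, and 5.25 ± 1.47 CPM in Ad-TGFβ1 lungs, against 4.88 ± 2.26 CPM in empty vector lungs (SD, n = 5 each). The Kng2 difference was 5.96 ± 0.54, and reads may be shared with its paralog Kng1.

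On the negative side of those genes Acta1, the skeletal muscle actin, had the lowest difference (-5.82). Ad-TGFβ1 library 5 stood at 25.6 CPM against at most 3.55 CPM in any other lung, and without it the difference was -3.79 and still called. The call of Acta1 was lost without bleomycin library 2, empty vector library 3 or 5, saline library 2 or 3, or the 3 libraries. Cyp1a1, an enzyme induced through the aryl hydrocarbon receptor, followed at -5.10, with saline library 4 at 153 CPM and no other saline lung above 6.08 CPM. Without that library its difference was -2.40 and still called. Tmem132d, a membrane protein, was even within groups, with 1.84 ± 0.309 CPM in bleomycin lungs, against 18.9 ± 1.97 CPM in saline lungs, and 14.6 ± 1.60 CPM in Ad-TGFβ1 lungs, against 13.8 ± 2.83 CPM in empty vector lungs (SD, n = 5 each). Its difference was -3.45 ± 0.20 (edgeR adjusted p = 3.56e-09). The sodium-coupled transporter gene Slc5a12 also had -3.45, and the transcription factor gene Hes2 had -3.40.

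The 108 genes called in both effects with opposite signs, 0.571% of those tested, split into 46 that rose with bleomycin and fell with Ad-TGFβ1, and 62 the other way round. The count was 401 without empty vector library 1, 393 without the 3 libraries, 69 without empty vector library 3 and 52 without empty vector library 4 or Ad-TGFβ1 library 1. Beside Retnla, the first group was led by the rhomboid protease gene Rhbdl2 (effects of 1.56 and -1.47), Ankrd37, which is induced by low oxygen (2.22 and -0.67), and the interleukin-9 receptor gene Il9r (1.52 and -0.84). The second was led by Bcan, a hyaluronan-binding proteoglycan (-2.71 and 0.73), Krt79 (-2.56 and 0.89), the netrin receptor gene Unc5d (-1.68 and 1.20) and Chrdl1. Bcan had 1.35 ± 0.362 CPM in bleomycin lungs, against 8.85 ± 1.44 CPM in saline lungs, and 9.19 ± 1.79 CPM in Ad-TGFβ1 lungs, against 5.54 ± 1.22 CPM in empty vector lungs (SD, n = 5 each).

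Markers of tissue that can be carried along in a dissected lung were measured too. Of 18 cardiac and striated muscle genes, which the muscle sleeves of pulmonary veins also express, 17 were higher in empty vector than in saline lungs (background 13.6%), 8 fell with bleomycin (background 19.6%), and none was called in the difference. The 8 were 3 to 5 without bleomycin library 2, 3 or 4 or saline library 2, 3 or 5. Their mean log2 CPM ran from 0.71 to 2.20 in bleomycin lungs, against 1.74 to 3.18 in saline lungs, and from 3.12 to 5.43 in Ad-TGFβ1 lungs, against 2.17 to 6.11 in empty vector lungs. Of 6 red blood cell genes, edgeR called none in any of the 4 comparisons. Mesothelial genes had 1 positive (background 7.67%) and 1 negative difference (background 5.55%) among 9, or 4 negative ones without saline library 5. Whether these shifts bear on the differences above was not tested.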

How the data were processed

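Left lung RNA was rRNA-depleted and sequenced as stranded paired-end libraries, per the labels' protocols. The values used are the 2 tables of raw gene counts deposited by the authors. Per the submitters' processing notes they used STAR 2.6.1d, Picard, featureCounts of Subread 1.6.3 and edgeR, with builds mm9 and GRCm38 named. No source used here gives the strand setting of the counting, so overlapping and antisense genes remain uncertain.

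Both tables held the same 55536 gene identifiers, all of which matched the GENCODE M21 annotation, and were joined on them. Coordinates are those of that annotation (GRCm38). Only the 20 vehicle libraries entered the fit, with 1 coefficient per group. Low genes were removed with filterByExpr (18906 genes left), libraries were scaled by TMM (factors 0.920 to 1.05), and edgeR 4.0.16 in R 4.3.3 gave quasi-likelihood tests with Benjamini-Hochberg adjustment over the 18906 genes and a threshold of 0.05. The common biological coefficient of variation was 17.1%. Intervals of 95% come from the fitted standard errors, and log2 CPM used a prior count of 2. Depth ran from 9289156 to 17336972 counts per library. Within groups, all 40 pairs of libraries differed by more than counting noise (chi-square per degree of freedom 4.29 to 47.6, where counting noise alone gives 1). Steps were tested on simulated data with 200 changed genes among 18906, where edgeR recovered 51% of those changed 2-fold.

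The comparison, its 52 gene lists and the tests were chosen with earlier results of these data known, and a list's count supports nothing by itself. Named were a panel of 20 genes, the 8 called genes of largest difference per side, 6 per side for the opposite-sign and same-sign patterns, and up to 4 called members per list, all averaging at least 1 CPM, beside up to 4 further members of a list. Further members and the genes printed library by library were selected after their values were seen. Alternatives were DESeq2 1.42.0 tests and size factors, limma 3.58.1 voom with quality weights, other filters, all 40 libraries in 1 fit, each model alone, and each library left out. The authors' TMM-normalized tables and the saracatinib groups were not used in the main fit. Some genes that this rule names are not reported here.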

Additional observations from a re-analysis of the deposited data

Results flagged for a closer look

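Among 92 sets of 5 values (23 genes in 4 groups), 7 held a library far from the other 4 by Dixon's test, where chance alone gives about 1 in 20. Bleomycin library 3 was high for Tgfb1, at 125 CPM, and for Cdkn1a, at 301 CPM. Ad-TGFβ1 library 4 was high for Slc7a10, at 33.5 CPM. Saline library 5 was high for Slc7a10, at 122 CPM. Saline library 3 was high for Retnla at 79.4 CPM, for Cxcl9 at 7.47 CPM and for Chrdl1 at 32.0 CPM.

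The effects of the models differed for 2501 genes in the edgeR test of the difference itself. For 108 of these genes both effects were called, with opposite signs.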

How the results depend on the processing

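No paired analysis was possible because the labels give no replicate numbers shared between the groups. Neither the correlation nor any called difference among the 160 named genes changed sign under the alternatives run. The uncalled differences of 10 named genes had the other sign under some alternative, among them those of Cdkn1a (-0.44 without the 3 libraries) and Ager (-0.11). The 2501 genes called in the difference became 4529 with limma voom and quality weights, against 2431 to 3507 with DESeq2, its size factors, all 40 libraries or the 3 libraries left out, and 1864 to 3564 when each library was left out in turn. Ad-TGFβ1 calls were 7065 with limma voom instead of 3860, and 2069 to 6021 leaving out 1 library. With limma voom the bleomycin calls were 7938 instead of 7803, so the gap between the models was smaller than with edgeR. Bleomycin calls ran from 6660 to 8366, and empty vector over saline calls from 3288 to 5291, leaving out 1 library. The 108 opposite-sign genes became 540 with limma voom, 393 without the 3 libraries, 20 at an adjusted p under 0.01, and 52 to 401 leaving out 1 library. The Pearson r between the effects, 0.454, was 0.352 without the 3 libraries, 0.375 with limma voom, 0.418 with a mean of at least 1 CPM, 0.156 with no filter, and 0.388 to 0.513 leaving out 1 library. The cause of these shifts was not tested.

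Of 160 named genes, 12 lost their call with no filter, where more genes are tested, 7 lost it and 2 gained it without the 3 libraries, and 2 to 16 lost it when a single library was left out. Those lost without the 3 libraries were Col3a1, Lrrc15, Acta1, Loxl2, P4hb, Nr1d2 and Stat2. At depths of 9289156 to 17336972 counts and 5 libraries a group, 51% of simulated 2-fold and 30% of 1.5-fold changes were recovered. The simulation changed 200 of 18906 genes, whereas 2501 were called in these data, so the share recovered here may differ. An uncalled difference does not show equal effects.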

Other observations

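Small proteoglycans and hyaluronan genes had 4 positive (background 7.67%) and 5 negative differences (background 5.55%) among 16 tested. Fibromodulin (Fmod), a collagen-binding proteoglycan, rose by 2.98 in bleomycin lungs with a difference of 3.07, and the hyaluronan synthase gene Has2 rose by 3.12 with a difference of 3.37. Osteomodulin (Omd) and osteoglycin (Ogn) fell in bleomycin lungs, with differences of -1.95 and -1.60. Biglycan (Bgn) rose in both models, by 0.41 with bleomycin and 1.03 with Ad-TGFβ1, a difference of -0.62 (edgeR adjusted p under 0.05 for each difference named here). Among 13 Wnt antagonist genes, 3 differences were positive (background 7.67%) and 1 negative (background 5.55%), or 3 negative without the 3 libraries. The negative one was Nkd1 (-1.05), and Sfrp1, a secreted Wnt binder, rose by 2.78 in bleomycin lungs with a difference of 2.71.

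Among 15 complement genes, 4 differences were positive (background 7.67%) and 2 negative (background 5.55%). The positive ones were those of the C1q chains C1qa, C1qb and C1qc and the receptor gene C3ar1, at 1.31, 1.41, 1.24 and 1.37. The inhibitor gene Serping1 was among the negative ones, at -0.63. Of 13 neutrophil and myeloid inflammation genes, Saa3, an acute phase protein gene, was the single called difference (3.85), and of 13 CC chemokine genes it was Ccl9 (2.09), shares near the background of 7.67%. Of 18 cholesterol genes, 4 differences were negative (background 5.55%), or 2 without saline library 1, and that of the efflux transporter gene Abca1 was positive (1.47). The basal cell keratin Krt14 had a difference of 4.59, the stress factor gene Atf3 one of 1.44, the stromal chemokine gene Cxcl12 one of 0.60 and the Src family kinase gene Fgr one of 0.60. The basal cell and Src family lists had 1 positive call each, or 0 in at least 1 fit that left out 1 library. For the Src family list it was also 0 with DESeq2 size factors and with all 40 libraries. Schwann cell genes had 2 positive differences among 5 (background 7.67%), S100b (1.89) and Mbp (0.37). Neither of the 2 tested thymocyte genes was called in the difference.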
